A study of Homo sapiens with 6 samples.

Results

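Replication-dependent histone genes encode the bulk histones that package newly copied DNA. They were picked from an expression array study of AGS cells, an established human gastric carcinoma line, by symbol: H2AC, H2BC, H3C or H4C followed by a number, H1- followed by a number, or the older HIST names. A transcript cluster is the array's unit of measurement, a group of probes along the transcript, and clusters annotated with exactly 1 symbol were used. Of 18417 genes with such a cluster, 63 met the symbols' pattern: 11 of class H1, 14 of H2A, 17 of H2B, 8 of H3 and 13 of H4. Each had a single cluster, so no choice between clusters was needed. The pattern is wider than the label. It also takes in the linker histone H1-10, which is made outside S phase, the germ-line histones H1-6, H1-7, H1-8, H2AC1 and H2BC1, the pseudogenes H1-9P and H2BC19P, and the antisense RNA H1-10-AS1, which leaves 54 replication-dependent genes. H4C14 and H4C15 carry the same value on every array, so the 63 members hold 62 distinct measurements.

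The study compared 3 arrays of AGS cells labelled as untreated control with 3 of AGS cells given 20 µM celecoxib, an inhibitor of cyclooxygenase-2, for 24 h. Cells had grown for 48 h before that, and each array took 250 ng of total RNA. The drug came in DMSO, and the sources used here do not say whether control wells received it. The labels number the arrays as biological replicates but also mention a pooling step, and the p-values below therefore capture sample-to-sample scatter alone, part of which may be technical. AGS is a single line, grown in wells. The simple-epithelium keratins KRT8, KRT18 and KRT19 and the adhesion molecule EPCAM lay at or above the 97.6th percentile of genes on every array. Another epithelial gene, CLDN4, lay between the 85.4th and 87.7th. Of genes of other cells, the leukocyte gene PTPRC lay at or below the 3.37th, and CD3E, PECAM1 and VWF at or below the 24.1st. The fibroblast genes COL3A1 and COL1A1 reached the 40.1st and 60.3rd. All levels are log2 values, so 1 unit is a doubling, and every difference is celecoxib minus control. The arrays read whole cultures: more cells in S phase and more histone RNA per cell cannot be told apart.

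Histone H2A, H2B, H3 and H4 form the nucleosome core, and H1 binds the linker DNA between nucleosomes. Their replication-dependent genes are switched on at the start of S phase by NPAT, a co-activator phosphorylated by cyclin E and CDK2. The transcripts are not polyadenylated: they end in a stem-loop that is bound by SLBP and trimmed with the help of U7 small nuclear RNA, and they are degraded when DNA synthesis stops.

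The promoters share some elements and differ in others by class. RefSeq promoter entries of build GRCh38.p14 were matched for 55 of the 63 members, and the 250 bases before the start were searched on both strands for 4 sets of letters. The TATA box was sought as TATAAA. The box bound by the factor NF-Y was sought as CCAAT. The octamer bound by OCT1 was sought as ATTTGCAT, and the core of the H4 promoter element bound by HINFP as GGTCCG. None of the 4 contains another, and matches on opposite strands can share bases, as the TATA boxes far from the start of H2BC11 do. The sequences below are those of H4C8 (chr6:26285535-26285784, minus strand), which had the smallest p of all members, of H2AC14 (chr6:27814778-27815027, minus strand) and H2BC11 (chr6:27132796-27133045, minus strand), whose groups did not overlap, of H3C10 (chr6:27809801-27810050, plus strand) and H1-2 (chr6:26056471-26056720, minus strand) as examples of their classes, and of H1-10 (chr3:129316287-129316536, minus strand), which went the other way. Capitals mark every match to the 4 sets of letters on either strand, and each sequence runs 5′ to 3′ towards the start.
H4C8: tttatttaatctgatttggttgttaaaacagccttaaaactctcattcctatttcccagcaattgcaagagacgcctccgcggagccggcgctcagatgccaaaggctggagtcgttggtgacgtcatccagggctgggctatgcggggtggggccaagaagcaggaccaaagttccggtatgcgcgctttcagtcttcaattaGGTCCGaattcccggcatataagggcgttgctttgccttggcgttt
H2AC14: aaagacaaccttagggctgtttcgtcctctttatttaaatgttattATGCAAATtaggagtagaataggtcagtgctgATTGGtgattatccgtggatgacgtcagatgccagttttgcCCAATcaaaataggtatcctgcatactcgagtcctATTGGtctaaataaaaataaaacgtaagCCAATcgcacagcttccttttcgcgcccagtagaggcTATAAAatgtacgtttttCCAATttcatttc
H2BC11: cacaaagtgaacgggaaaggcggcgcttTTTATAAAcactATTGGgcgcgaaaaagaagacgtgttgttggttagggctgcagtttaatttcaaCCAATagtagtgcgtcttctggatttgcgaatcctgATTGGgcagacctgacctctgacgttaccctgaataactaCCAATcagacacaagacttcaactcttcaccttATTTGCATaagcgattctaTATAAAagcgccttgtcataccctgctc
H3C10: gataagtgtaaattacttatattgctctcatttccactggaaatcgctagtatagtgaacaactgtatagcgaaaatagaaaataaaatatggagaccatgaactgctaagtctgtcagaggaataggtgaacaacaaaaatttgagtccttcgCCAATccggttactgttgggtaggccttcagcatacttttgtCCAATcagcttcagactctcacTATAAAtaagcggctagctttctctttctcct
H1-2: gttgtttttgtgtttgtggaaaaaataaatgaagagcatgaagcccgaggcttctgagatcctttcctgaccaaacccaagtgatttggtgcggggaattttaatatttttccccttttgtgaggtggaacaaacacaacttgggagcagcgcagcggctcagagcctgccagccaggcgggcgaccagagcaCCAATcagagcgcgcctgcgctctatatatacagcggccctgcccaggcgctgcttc
H1-10: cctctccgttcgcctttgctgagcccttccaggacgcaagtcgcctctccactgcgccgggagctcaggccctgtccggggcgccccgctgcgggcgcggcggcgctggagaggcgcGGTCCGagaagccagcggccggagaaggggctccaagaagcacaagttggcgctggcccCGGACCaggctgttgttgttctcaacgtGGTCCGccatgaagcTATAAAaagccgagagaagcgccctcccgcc

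CCAAT was found in 13 of 13 H2A, 16 of 16 H2B and 6 of 6 H3 promoters and in 8 of 9 of H1, against 33.0% of 27305 promoters of the same length. Of the H4 promoters only 3 of 11 held it. The octamer was in 10 of 13 H2A and 13 of 16 H2B promoters and in 0 of the H1, H3 and H4 promoters matched, against 1.66% of all. GGTCCG was in 10 of 11 H4 promoters, among them that of H4C8, against 9.33% of all, and TATAAA in 35 of the 55 members, 63.6%, against 11.1%. That count takes matches anywhere in the window. In H2AC8, H2BC4, H2BC6, H2BC14, H2BC17 and H4C16 the only match lay 189 to 250 bases before the start. The H2AC14 window is shared: H2BC14 starts on the other strand, 245 bases away, so the same letters lie before both genes. This holds for 9 pairs of H2A and H2B members, with starts 215 to 248 bases apart. A match between the 2 starts of a pair was counted in both classes, so the H2A and H2B counts are not independent. The promoter of H1-10 holds TATAAA and GGTCCG but no CCAAT in this window.

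Histone RNA was highest on the same treated array and lowest on the same control array in most members. Celecoxib 1 was the highest of the 6 arrays for 52 of 63 members, 82.5%, where 27.4% of all genes had their highest value there. Control 2 was the lowest for 47 members, 74.6%, against 20.2% of all genes, and 46 members had both. The mean over the 63 members was 8.40, 8.24 and 8.55 in controls 1, 2 and 3, and 8.91, 8.42 and 8.48 in celecoxib arrays 1, 2 and 3. Celecoxib 1 stood above every control, while celecoxib 2 and 3 lay between controls 1 and 3. Group means were 8.40 ± 0.16 and 8.60 ± 0.27 (SD, n = 3 each), so the gap between the groups was smaller than the spread of the celecoxib arrays.

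**Figure D1:**
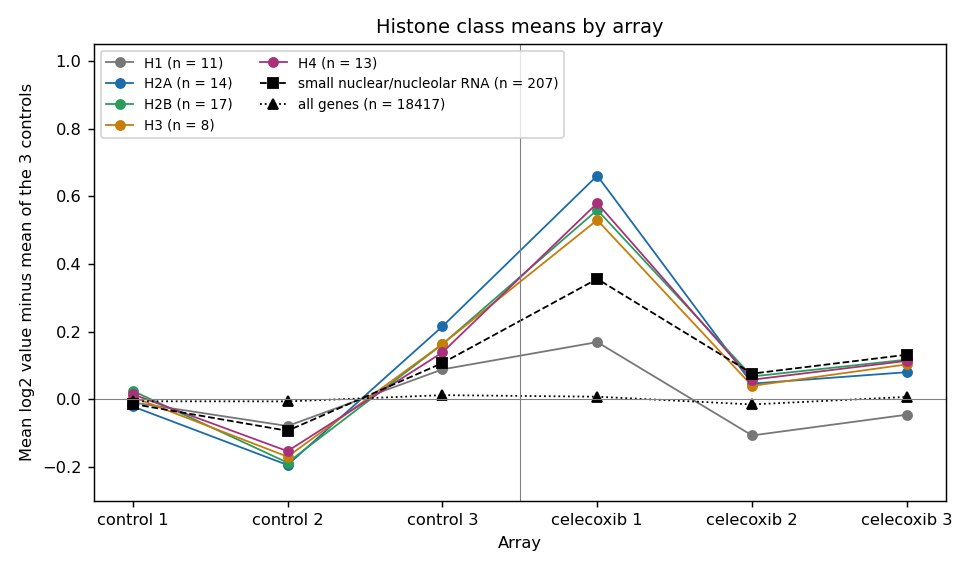
Mean log2 value of each histone class on each array, minus the mean of its 3 control values; x axis, array; y axis, log2 difference; black squares, small nuclear and nucleolar RNA genes; black triangles, all genes. Celecoxib 1 reached 0.66 for H2A and 0.53 for H3 while celecoxib 2 and 3 stayed between 0.04 and 0.12 for the 4 core classes, and all genes stayed between -0.02 and 0.01.

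The spread inside a group was as large as the difference between groups. Control 3 exceeded control 2 in 60 of 63 members, with a median gap of 0.32, against 0.02 over all genes. Celecoxib 1 exceeded the mean of celecoxib 2 and 3 by a median of 0.48, against 0.02 over all genes. The median difference of celecoxib from control was 0.23 over the 63 members and 0.26 over the 54 replication-dependent ones, against -0.01 over all 18417 genes. In 53 members, 84.1%, the difference was above 0, as it was in 47.9% of all genes. The 48 above the median of all clusters (6.785) had a median difference of 0.26, and the 15 below it had 0.05.

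No histone gene passed the test. In a linear model over all 18417 genes (limma, Benjamini-Hochberg adjustment), 26 genes, 0.141%, had an adjusted p under 0.05, and 0 of 63 members did. The smallest adjusted p of a member was 0.294 (H4C8). At an unadjusted p under 0.05 there were 6 members, 9.52%, 5 higher (H4C8, H2BC19P, H2BC4, H2BC11 and H2BC17, against 6.87% of all genes) and 1 lower (H1-10, against 4.44%). The share over all genes in either direction was 11.3%, above that of the members. The 3 celecoxib values lay above all 3 controls in 6 members, 9.52%, against 11.1% of all genes, and below them in 1, 1.59%, against 7.95%. The median standard error of a member was 0.15, against 0.09 over all genes.

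**Figure D2:**
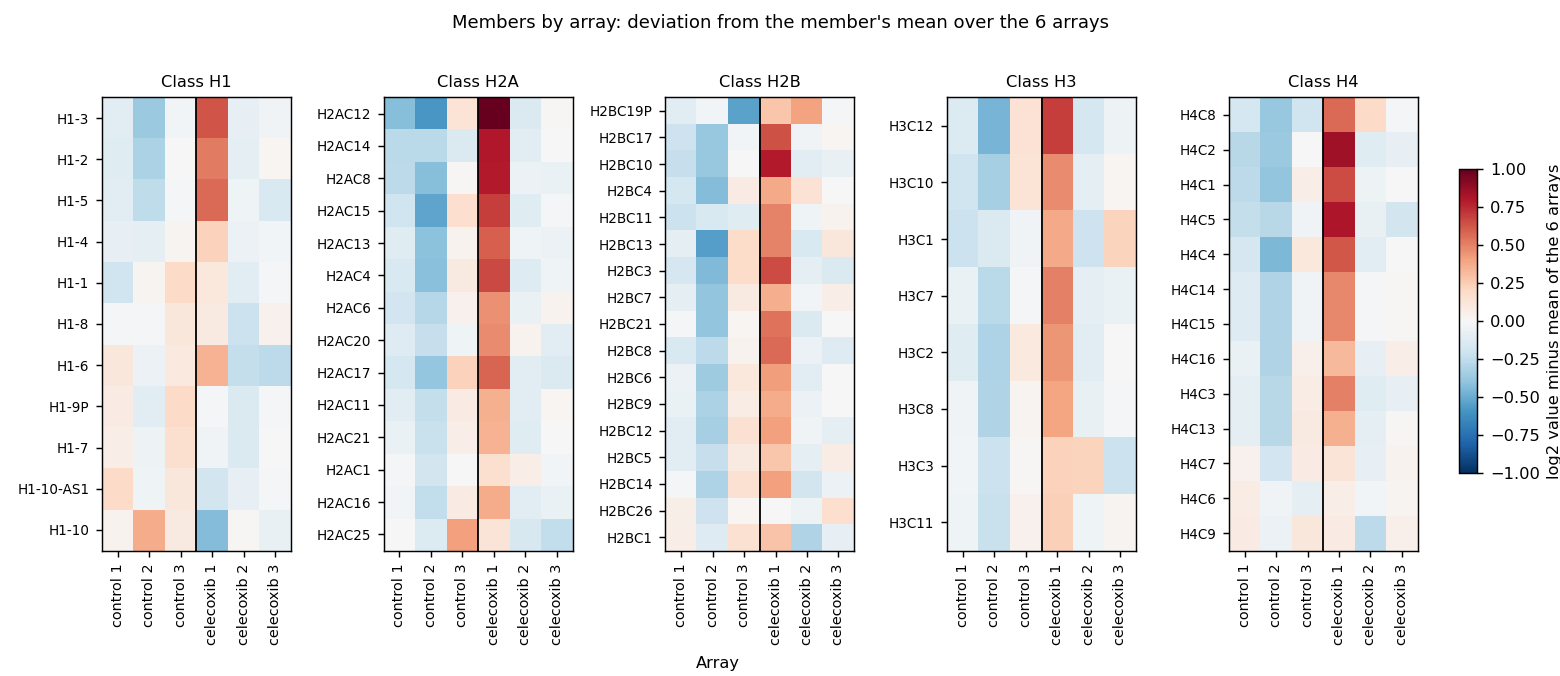
Each member's log2 value on each array minus its own mean over the 6 arrays, by class; columns, arrays; colour, log2 deviation from -1 (blue) to 1 (red), with measured deviations from -0.582 to 1.0. The celecoxib 1 column is the reddest in 52 of 63 members and the control 2 column the bluest in 47, while H1-10, at the foot of class H1, has the reverse colours.

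These counts depended on single arrays. Without celecoxib 1 the median difference of the 63 members was 0.07, with 48 members above 0, 76.2% against 48.1% of all genes, and 0 members passed the test, against 0.00543% of all genes. Members with all values higher then numbered 6, against 14.3%. The unadjusted count went from 6 to 3 without control 1, control 2 or celecoxib 1 (background 7.41%, 7.02% and 9.55%), and to 11, 16 and 12 without control 3, celecoxib 2 or celecoxib 3 (background 10.8%, 12.8% and 11.4%). Without control 3, the highest control, the celecoxib values lay above the controls in 34 members, 54% against 17.8% of all genes. Without control 1 they did in 7 and without control 2 in 6 (background 14.1% and 13.7%). Without celecoxib 2 or celecoxib 3 they did in 10, 15.9%, against 16.9% and 16.5%. Members with all values lower numbered 4 without control 2, 3 without celecoxib 1 and 2 without celecoxib 3 (background 12%, 13.6% and 13.9%), and 1 without control 1, control 3 or celecoxib 2 (background 11.8%, 14.9% and 13.8%). Without control 2 the median was 0.12.

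**Figure D3:**
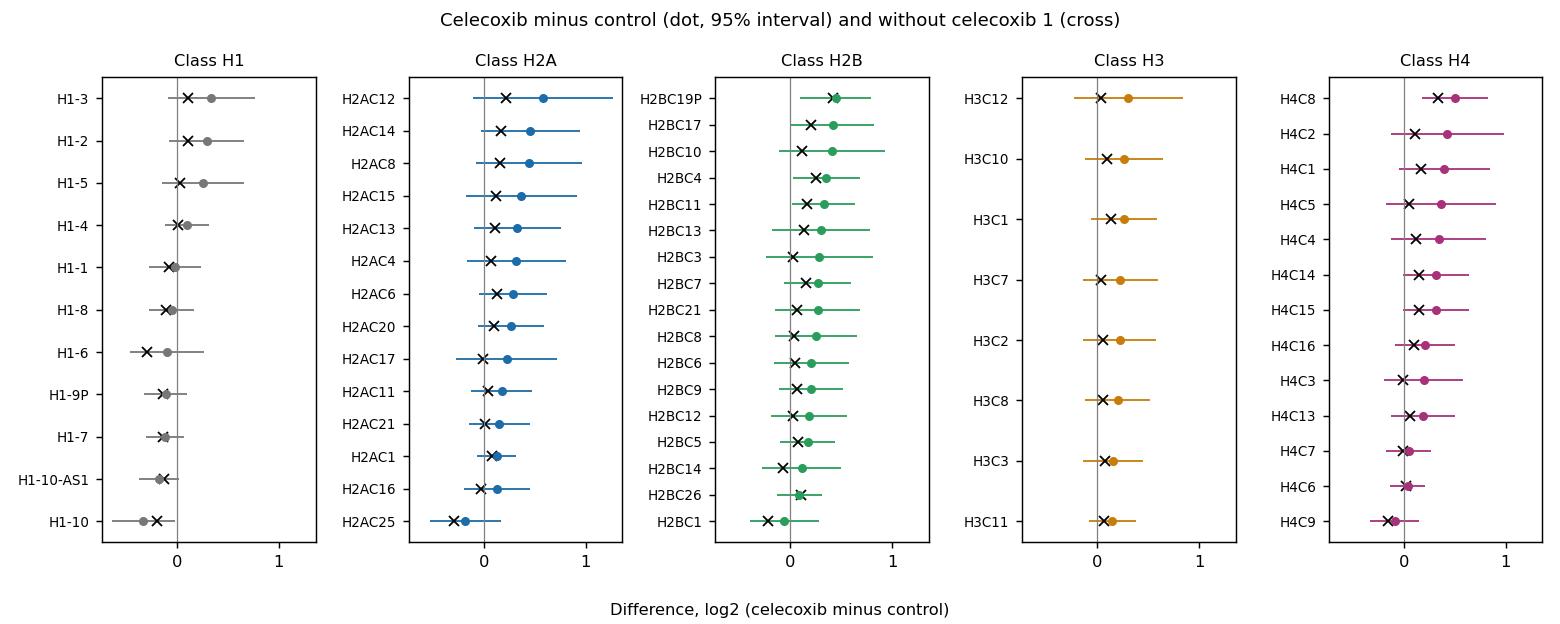
Difference of each member between celecoxib and control (dot, log2) with its 95% interval from the linear model, and the difference without celecoxib 1 (cross), by class. In H2A, H2B, H3 and H4 most crosses lie nearer 0 than the dots, and the dots reach 0.58 for H2AC12.

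H4 forms, with H3, the tetramer at the heart of the nucleosome, and nearly all of its genes encode the same protein. The class mean was 8.67, 8.50 and 8.79 in the controls and 9.23, 8.71 and 8.77 with celecoxib, and only celecoxib 1 lay above control 3. Of 13 members 12 had positive differences, with a class median of 0.31. H4C8 had the widest separation in the class. It read 7.31, 7.11 and 7.29 in the controls and 8.05, 7.68 and 7.47 with celecoxib. All 3 treated values lay above all controls, and control 2 was the lowest and celecoxib 1 the highest array. The difference was 0.50 ± 0.14 (SE, n = 3 per group; limma adjusted p = 0.294), or 1.41-fold, and 0.34 without celecoxib 1.

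H4C14 and H4C15, near-identical copies that the array reads with the same values, stood at 11.41, 11.24 and 11.51 in the controls and 12.03, 11.52 and 11.56 with celecoxib. The groups did not overlap, but celecoxib 2 lay only just above control 3. Their difference was 0.31 ± 0.14 (limma adjusted p = 0.446). H4C13, the brightest H4 cluster, read 11.64, 11.45 and 11.82, then 12.09, 11.64 and 11.75, so the groups overlapped at a difference of 0.19 ± 0.14 (limma adjusted p = 0.602). H4C9, at -0.09, was the 1 member below 0. Of the 4 H4 clusters below the median of the table, H4C6, H4C7 and H4C9 lay between -0.09 and 0.05 and H4C16 was at 0.21, with celecoxib 1 its highest array. The brighter H4C2, H4C1, H4C5 and H4C4 had differences of 0.43, 0.40, 0.37 and 0.34 with overlapping groups.

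H2A, the partner of H2B in the nucleosome, had the highest celecoxib 1 value against its controls of the 5 classes. Its class mean was 8.11, 7.94 and 8.35 in the controls and 8.79, 8.18 and 8.21 with celecoxib, with celecoxib 2 and 3 below control 3. The median difference over 14 members was 0.27, and 13 were above 0. H2AC14 read 6.60, 6.60 and 6.72 in the controls and 7.67, 6.76 and 6.86 with celecoxib. Its groups did not overlap, yet celecoxib 1 lay 0.86 above the mean of the other treated arrays. The difference was 0.46 ± 0.21 (limma adjusted p = 0.455), and 0.17 without celecoxib 1.

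H2AC8 read 6.60, 6.43 and 6.87, then 7.65, 6.80 and 6.79, and H2AC6 read 8.21, 8.12 and 8.45, then 8.86, 8.34 and 8.44. In both genes control 3 lay above celecoxib 2 and 3, so the groups overlapped (differences of 0.45 ± 0.23 and 0.28 ± 0.14, limma adjusted p = 0.490 for each). H2AC12 had the largest difference of any member, 0.58, and also the largest standard error, 0.30. H2AC21, the brightest H2A cluster, stood at 12.33, 12.19 and 12.47 in the controls and 12.75, 12.28 and 12.40 with celecoxib, a difference of 0.15 ± 0.13 (limma adjusted p = 0.671). H2AC25 was the 1 member below 0, at -0.18.

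H2B pairs with H2A in the nucleosome, and many H2B genes start back to back with an H2A gene. The class mean was 8.12, 7.91 and 8.26 in the controls and 8.65, 8.16 and 8.21 with celecoxib. All but H2BC1, a germ-line gene, of its 17 members were above 0, with a median of 0.27. H2BC11 read 5.54, 5.60 and 5.63 in the controls and 6.25, 5.71 and 5.79 with celecoxib. Its groups did not overlap, and the difference was 0.33 ± 0.14 (limma adjusted p = 0.424), or 0.16 without celecoxib 1.

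H2BC4 read 8.58, 8.32 and 8.84 in the controls and 9.14, 8.90 and 8.76 with celecoxib, so celecoxib 3 fell below control 3. Its difference was 0.35 ± 0.14 (limma adjusted p = 0.417) and 0.25 without celecoxib 1. H2BC19P, a pseudogene, did not follow the family's pattern. It read 6.31, 6.39 and 5.88 in the controls and 6.69, 6.82 and 6.41 with celecoxib, with control 3 the lowest and celecoxib 2 the highest array. Its difference was 0.45 ± 0.15 (limma adjusted p = 0.359) and 0.42 without celecoxib 1. H2BC14, the brightest H2B cluster, stood at 12.33, 12.04 and 12.49, then 12.75, 12.16 and 12.28, a difference of 0.11 ± 0.17 (limma adjusted p = 0.820) that was -0.07 without celecoxib 1 and -0.02 without control 2.

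Some H2A and H2B genes lie back to back. In RefSeq, 9 pairs of members start on opposite strands 215 to 248 bases apart, and in 8 of them both genes were highest on celecoxib 1, as were 13 of 14 H2A and 15 of 17 H2B members whether paired or not. Both differences were above 0 in 7 pairs. The sizes within a pair still differed by a median of 0.19, from 0.0014 for H2AC20 and H2BC21 to 0.35 for H2AC14 and H2BC14. H2A and H2B members with the octamer had median differences of 0.25 and 0.27, and the 3 of each class without it had 0.33 and 0.17.

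H3 carries the tail residues on which many chromatin marks are written. Its class mean was 9.36, 9.18 and 9.51 in the controls and 9.88, 9.39 and 9.45 with celecoxib. In all 8 members celecoxib 1 was the highest array and the difference was above 0, with a median of 0.23 and a range from 0.15 to 0.31, and in 0 of them did the groups separate. H3C1 read 6.46, 6.53 and 6.64, then 7.06, 6.47 and 6.90, and its difference was 0.26 ± 0.14 (limma adjusted p = 0.508). Celecoxib 2 lay among the controls in this gene. H3C10 read 8.38, 8.25 and 8.72, then 9.05, 8.49 and 8.60 (0.26 ± 0.17, limma adjusted p = 0.559). H3C11, the brightest H3 cluster and the third smallest p, read 12.82, 12.64 and 12.91, then 13.10, 12.82 and 12.89 (0.15 ± 0.10, limma adjusted p = 0.586). Control 3 was above celecoxib 2 and 3 in both H3C10 and H3C11.

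Class H1 mostly split by whether a member is replication-dependent, with H1-1, at -0.02, as the exception. The 5 replication-dependent linker histones H1-1 to H1-5 had a median difference of 0.25, with 4 above 0 and celecoxib 1 highest in 4. H1-2, a main linker histone, read 9.76, 9.57 and 9.89 in the controls and 10.40, 9.78 and 9.90 with celecoxib. Celecoxib 3 lay just above control 3 and celecoxib 2 below it, and the difference was 0.29 ± 0.16 (limma adjusted p = 0.513). H1-4, the brightest cluster of the class, read 13.14, 13.13 and 13.25, then 13.45, 13.16 and 13.20 (0.10 ± 0.09, limma adjusted p = 0.703). The other 6 members, H1-6, H1-7, H1-8, H1-9P, H1-10 and H1-10-AS1, were all below 0, which put the median of the whole class at -0.05. Among them only H1-6 lies on chromosome 6 with H1-1 to H1-5, so role and location largely coincide, and neither was tested. In H1-6 celecoxib 1 was still the highest array, at 6.14, against 5.55 and 5.53 in celecoxib 2 and 3. Of the 11 members of the class, only H1-10 had a 95% interval that left out 0.

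H1-10, the replication-independent linker histone also called H1X, was the 1 member whose treated values all lay below the controls. It read 7.91, 8.25 and 7.97 in the controls and 7.44, 7.89 and 7.80 with celecoxib. Control 2 was its highest array and celecoxib 1 its lowest, the reverse of most members. The difference was -0.33 ± 0.13 (limma adjusted p = 0.418), and -0.20 without celecoxib 1, and the groups overlapped once arrays were centred on their medians. H1-10-AS1, the antisense RNA beside it, read 6.73, 6.50 and 6.65, then 6.36, 6.46 and 6.53, with a difference of -0.18 ± 0.09 (limma adjusted p = 0.467). Celecoxib 1 was its lowest array too.

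By location, the 49 members on chromosome 6 had a median difference of 0.25 with celecoxib 1 highest in 46. The 8 on chromosome 1, which include H4C14 and H2AC20, had 0.27, with celecoxib 1 highest in 5. The 3 on chromosome 3, H1-8, H1-10 and H1-10-AS1, had -0.18, with celecoxib 1 highest in 0.

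The array cannot separate some near-identical histone copies, and single-symbol clusters of such copies may also share signal. A further 16 clusters are annotated with several symbols that all meet the pattern, and they hold 13 distinct sets of values. Celecoxib 1 was the highest and control 2 the lowest array in 13 of 13. Their differences ranged from 0.16 to 0.40 with a median of 0.27, and 0 passed the test (smallest limma adjusted p = 0.214). The largest was the cluster shared by H4C14 and H4C15, at 8.17, 8.10 and 8.32 in the controls and 8.72, 8.48 and 8.58 with celecoxib, where the groups did not overlap. It was 0.40 ± 0.09 (limma adjusted p = 0.214). In the clusters shared by H3C13, H3C14 and H3C15, control 3 lay above celecoxib 2 and 3, and the groups overlapped.

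Small nuclear and nucleolar RNAs, which also lack a poly(A) tail, had the same highest and lowest array. The median of 207 such genes stood at 7.14, 7.01 and 7.14 without the drug and 7.68, 7.27 and 7.27 with it, highest on celecoxib 1 and lowest on control 2. All 3 treated medians lay above the controls, but by the mean over these genes control 3 (7.10) lay above celecoxib 2 (7.07). Of these genes 169 had a difference above 0 and 38 below, with a median of 0.18, where 47.9% of all genes were above 0. In limma 0 passed the test. Before adjustment, at the same threshold, 34 were higher and 1 lower, against 6.87% and 4.44% of all genes. The smallest p belonged to SCARNA8, which guides modification of spliceosomal RNA, at 0.41 ± 0.08 (limma adjusted p = 0.148), followed by SNORD116-14 at 0.51 ± 0.12 and SNORD63 at 0.68 ± 0.16, whose groups did not overlap. The median level of all 207 genes on each array was also fitted as a covariate. The median difference of the 63 histone members was then -0.18, and 6 members were above 0. This level itself differs between the groups, and its part in the histone differences was not tested further.

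Factors that switch on, mature or degrade histone mRNA had differences from -0.16 to 0.20. Decay factors such as UPF1 and XRN1 were on the same list, so its counts and median mix these roles. Of 26 genes measured (28 symbols listed), 17 were above 0 and 9 below, with a median of 0.04. In limma 0 passed, and 0 had an unadjusted p under 0.05. NPAT read 9.15, 9.17 and 9.26 in the controls and 9.45, 9.29 and 9.35 with celecoxib, a difference of 0.17 ± 0.07 (limma adjusted p = 0.441) with groups that did not overlap. SLBP, the stem-loop binding protein, read 9.47, 9.43 and 9.32, then 9.62, 9.41 and 9.35, so the groups overlapped (0.05 ± 0.09, with a 95% interval from -0.16 to 0.26). CASP8AP2, also called FLASH, which acts in 3′ end trimming, differed by 0.03 ± 0.09. LSM10, a subunit of the U7 particle, differed by 0.19 ± 0.11 and the transcription factor YY1 by -0.16 ± 0.09, the latter with groups that did not overlap.

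S-phase genes, which act in DNA replication, were more often below 0. Of 29 measured members (30 listed), 10 were above 0 and 19 below, with a median of -0.06, where 47.9% of all genes were above 0. In limma 0 passed. Before adjustment, at a p under 0.05, 1 was higher and 2 were lower, against 6.87% and 4.44% of all genes. The list's mean was 9.05, 9.02 and 9.01 in the controls and 8.99, 9.02 and 8.93 with celecoxib. By the mean celecoxib 1 lay below all 3 controls, but by the median over the list it lay above control 3. Of the 29 genes 10 were highest on celecoxib 1, against 27.4% of all genes. GINS1, part of the replicative helicase, differed by -0.22 ± 0.07 (limma adjusted p = 0.354), the licensing factor CDT1 by -0.26 ± 0.09 (0.374) and the primase subunit PRIM1 by 0.18 ± 0.08 (0.431), each with groups that did not overlap. Of 20 mitosis genes 19 were below 0, with a median of -0.21, and 0 passed. At an unadjusted p under 0.05 in limma 13 were lower, against 4.44% of all genes, and 0 were higher. KIF20A, BUB1B and KIF23, which act in spindle function and cytokinesis, differed by -0.37 ± 0.08, -0.30 ± 0.07 and -0.33 ± 0.09.

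Histone chaperones and the replication-independent histone variants had medians near 0. Of 24 chaperones 9 were above 0 and 15 below (median -0.04), and 0 passed in limma. Before adjustment 1 was higher and 3 were lower, against 6.87% and 4.44% of all genes. SSRP1, a subunit of FACT, differed by -0.28 ± 0.10, HJURP, the chaperone of the centromeric histone, by -0.22 ± 0.09, and IPO4, an importin of H3 and H4, by 0.17 ± 0.07. Of 10 measured replication-independent variants (14 listed), 5 were above 0 and 5 below (median 0.003), and 0 passed (0 at an unadjusted p under 0.05 in limma). Those with the smallest p were H2AX, the DNA damage histone, at -0.12 ± 0.07, H3-5 at 0.14 ± 0.09 and MACROH2A1 at -0.12 ± 0.10. Celecoxib 1 was the highest array in 4 of these 10 variants and control 2 the lowest in 5, against 27.4% and 20.2% of all genes.

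**Figure D4:**
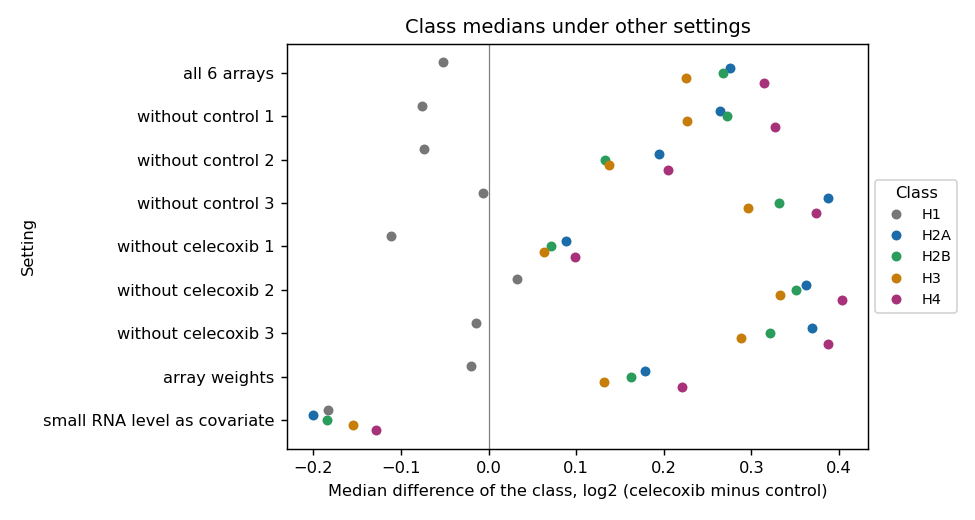
Median difference of each histone class (celecoxib minus control, log2) with all 6 arrays, without each array in turn, with array weights, and with the small RNA level as a covariate. H2A, H2B, H3 and H4 stay above 0 in every setting shown but the last, where they lie between -0.20 and -0.128, and without celecoxib 1 they lie between 0.0629 and 0.0987.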

How the data were processed

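RNA of 3 control and 3 celecoxib cultures was read on Affymetrix HuGene-1_0-st arrays. The deposited table holds log2 values of 33297 transcript clusters, made by the authors with RMA in Affymetrix Expression Console 1.1, per the submitters' processing notes; neither probe settings nor scan dates were at hand, and batches were not examined. The platform annotation named 19460 clusters with 1 symbol. The cluster with the highest mean stood for a gene (18417 genes). Members, gene lists and tests were chosen with earlier results of these data known. Named genes are, per class, the 3 smallest p and the brightest cluster, then H1-10, and per list the 3 smallest p with SLBP, NPAT and CASP8AP2.

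The comparison used limma (version 3.58.1; lmFit, eBayes) under R 4.3.3, two-sided, with Benjamini-Hochberg adjustment over all genes and a threshold of 0.05; errors of differences are standard errors. On simulated data with 200 changed genes the test recovered 77.5% of changes of 0.5, 99.4% of 1 and 100% of 2 (log2), with 5.73% false calls. Noise was drawn independently for each gene, and changed genes were picked from all 18417, whose median standard error was 0.09. The median for a member was 0.15, and members moved together by array, so these rates do not describe the histone members. The number of arrays limits the precision. Alternatives were another cluster rule, filters on dim genes, 3 normalizations, other variance priors, array weights, a small RNA covariate, a replicate block, and leaving out each array. Promoters are from RefSeq, 1 entry per symbol, without the bases after the start. Figures used matplotlib 3.10.9 in Python 3.11.15.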

Additional observations from a re-analysis of the deposited data

How the results depend on the processing

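Under all 21 alternatives run, 0 histone genes passed the threshold in limma. Some of these could hardly have changed that count. Each member has 1 cluster, so other cluster rules left its values as they were. Keeping the replication-dependent members only took a part of the same fit. Where it was counted, 3 to 16 members had an unadjusted p under 0.05. The 16, without celecoxib 2, were 25.4%, against 12.8% of all genes. The 3 without control 1 were 4.76%, against 7.41%. The all-gene share of this count was taken only for the main fit, single arrays left out and the replicate block. Testing all clusters of the table together was chosen after seeing the data. Leaving out each array in turn moved the median difference of the members between 0.0678 and 0.334, the count above 0 between 48 and 57, the members with all treated values higher between 6 and 34 and all lower between 1 and 4. Class medians then ranged from -0.111 to 0.0324 for H1, 0.0888 to 0.387 for H2A, 0.0707 to 0.351 for H2B, 0.0629 to 0.333 for H3 and 0.0987 to 0.403 for H4. Centring arrays on their median left 0 members with all values lower, as did keeping the replication-dependent members only, which put H1 at 0.251. Adding the several-symbol clusters left 10 of 79 clusters higher without overlap, 12.7% against 11.1% of all, and the 4 added hold 2 distinct sets of values. With the small RNA level as a covariate, 6 members were above 0, and medians were -0.178 for all members, -0.20 for H2A, -0.184 for H2B, -0.155 for H3 and -0.128 for H4; the cause was not tested.

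Among the named genes, signs changed in 4 settings, with limma adjusted p of 0.478 or more. The other members were not followed gene by gene. Some of them changed sign in further settings, since the count above 0 went from 53 to 57 without celecoxib 2. With the covariate H1-10 was at 0.0117, H1-2 -0.148, H1-4 -0.101, H2AC14 -0.144, H2AC21 -0.178, H2AC6 -0.0823, H2AC8 -0.205, H2BC11 -0.0141, H2BC14 -0.34, H3C10 -0.147, H3C11 -0.0665, H4C13 -0.142, H4C14 and H4C15 -0.0669, H3-5 -0.0516, MACROH2A1 0.0732, LSM10 -0.0335, SLBP -0.107 and CASP8AP2 -0.136. With array weights SLBP was at -0.0421. In that setting 4 mitosis genes passed the threshold, KIF20A, BUB1B and KIF23 among them, and 2 small RNA genes, SCARNA8 and SNORD63. The share of all genes that passed with array weights was not counted. Leaving out each array, H2BC14 was at -0.0694 without celecoxib 1 and -0.0168 without control 2, SLBP ranged from -0.0285 to 0.107 and CASP8AP2 from -0.0484 to 0.0874, both lowest without celecoxib 1. The cause was not tested.

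The groups share replicate numbers. Deviations of same-numbered arrays correlated at -0.02, 0.49 and 0.01, and 2 of 6 arrays correlated best with their own number, so the numbers were not taken as pairs. With the replicate number as a block, 0 members passed, 11 had an unadjusted p under 0.05 (17.5%, against 13.3% of all genes), and the median difference was 0.229.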
